A study of Homo sapiens with 10 samples.

Results

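The MS4A genes of chromosome 11 were followed in MV4-11 cells with and without the transcription factor IRF8. The members are MS4A1, MS4A2, MS4A3, MS4A4A, MS4A6A, MS4A7 and MS4A14, chosen by symbol, which makes 7 of the 19590 genes of the RNA-Seq table. They were picked as genes of one cluster in which MS4A6A and MS4A7 were already known to be lower in the knockout. The difference between the groups is therefore given for them as a description, with its standard error (SE) and no p-value, and counts of members called describe the choice as much as the data.

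MV4-11 is an acute myeloid leukemia (AML) cell line of the M5 (monocytic) subtype with an internal tandem duplication in the kinase gene FLT3, a background that both groups share. The 8 RNA-Seq libraries are 4 Control libraries, from cells infected with a control vector, and 4 IRF8 KO libraries, from clones in which IRF8 was targeted with CRISPR/Cas9 by lentiviral infection and which were raised by limited dilution. No treatment or time point separates the groups. Clones of both guides exist in the study, but no label ties a library to a clone or a guide, and none says that replicates are separate cultures, so the spread between replicates may be technical. The IRF8 ChIP-Seq samples were not analysed here.

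MS4A proteins cross the membrane with a tetraspanning fold and act mostly as partners of other receptors, and their genes lie side by side on the long arm of chromosome 11. Single members are known as markers of single blood lineages: MS4A1 encodes CD20 of B cells, MS4A2 the β chain of the high-affinity IgE receptor of mast cells and basophils, MS4A3 a protein of granulocyte-monocyte progenitors, and MS4A4A, MS4A6A and MS4A7 proteins of monocytes, macrophages and microglia. IRF8 is a factor of the monocyte and dendritic cell lineages that binds DNA together with ETS factors such as PU.1, at composites of a GAAA and a GGAA core, and at interferon response elements.

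The sequences just upstream of the members were read from RefSeq promoter windows (build GRCh38.p14), of which 250 bases before the annotated start are shown 5′ to 3′ on the gene's strand. They are given for a pair of genes at the middle of the cluster that were far lower in the knockout, for MS4A7, for which the study designed qPCR primers, and for MS4A3 as a neighbour that was not. Capitals mark matches to a motif.
MS4A6A (start 1, chr11:60184667-60184916, minus strand): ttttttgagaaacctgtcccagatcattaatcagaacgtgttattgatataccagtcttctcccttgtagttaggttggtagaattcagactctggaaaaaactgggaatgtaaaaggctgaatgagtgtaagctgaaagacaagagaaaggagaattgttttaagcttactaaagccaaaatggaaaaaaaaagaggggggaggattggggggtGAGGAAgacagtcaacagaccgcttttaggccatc
MS4A4A (chr11:60280416-60280665, plus strand): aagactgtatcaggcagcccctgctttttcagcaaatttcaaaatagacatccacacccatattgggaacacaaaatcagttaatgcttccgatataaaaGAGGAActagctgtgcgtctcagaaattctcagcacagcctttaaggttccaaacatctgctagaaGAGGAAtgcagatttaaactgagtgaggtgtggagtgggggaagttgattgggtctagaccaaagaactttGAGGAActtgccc
MS4A7 (chr11:60378282-60378531, plus strand): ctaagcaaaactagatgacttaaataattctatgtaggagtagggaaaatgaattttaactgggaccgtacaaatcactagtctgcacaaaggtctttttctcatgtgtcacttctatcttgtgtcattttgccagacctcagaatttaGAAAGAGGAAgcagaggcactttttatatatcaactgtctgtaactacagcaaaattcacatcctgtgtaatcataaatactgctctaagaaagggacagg
MS4A3 (chr11:60056415-60056664, plus strand): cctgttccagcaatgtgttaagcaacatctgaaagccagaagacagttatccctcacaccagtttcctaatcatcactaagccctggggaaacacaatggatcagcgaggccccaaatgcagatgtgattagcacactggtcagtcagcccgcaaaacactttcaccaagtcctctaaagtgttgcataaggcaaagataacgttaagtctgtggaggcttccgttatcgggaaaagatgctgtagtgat

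Searched on both strands were the ETS-IRF composite GGAANNGAAA, the IRF-ETS composite GAAANNGGAA, the interferon response core GAAANNGAAA and the short PU box GAGGAA. MS4A7 held an IRF-ETS composite, with the letters GAAAGAGGAA, whose first base lies at -101 from the start and which overlaps a PU box at -97. Of the 35116 RefSeq windows of this length, 2.37% held that composite. MS4A4A held PU boxes at -150, -84 and -13. MS4A6A held one at -35 of start 1, one at -129 of start 3 and no motif at its starts 2 and 4. Of all windows, 23.6% held at least one PU box. Interferon response cores lay upstream of MS4A12 and MS4A18, which had at most 1.1 normalized counts in any library, and PU boxes upstream of MS4A4E (-21) and of MS4A5 (-194), which had no read. None of the 4 motifs was found for MS4A2, MS4A3 and MS4A14. MS4A1, MS4A6E and MS4A15 had no window and were not searched. The remaining motifs were rare among all windows as well, at 2.41% for the ETS-IRF composite and 3.02% for the interferon response core. A match is only a match of letters in this window, and IRF8 binding was not analysed here.

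**Figure D1:**
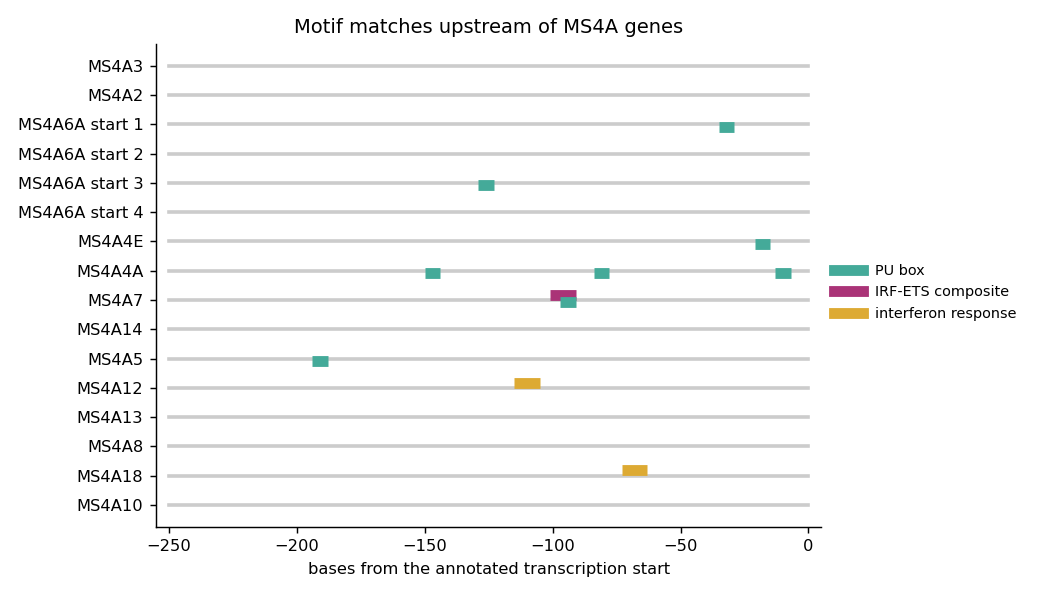
Motif matches upstream of the MS4A genes of the cluster that have a RefSeq window. The horizontal axis is the distance in bases from the annotated start (0 at the right), each grey line is the 250-base window of a start, and colored blocks mark PU boxes, IRF-ETS composites and interferon response cores. The composite of MS4A7 at -101 is the only IRF-ETS match, and MS4A4A has 3 PU boxes.

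The libraries held 39560072 to 65519047 reads on genes, with a median of 53881275 in Control and 51308898 in IRF8 KO. Values are the authors' normalized counts, reads divided by a size factor for each library, so that they can be compared between libraries of a gene but not between genes, whose lengths differ. In each group, replicates 1 and 3 stood apart from replicates 2 and 4 over all tested genes. Some members followed this split in Control, as given below. In IRF8 KO, MS4A2 and MS4A3 did not follow it, with replicate 2 alone low. IRF8 itself, the targeted gene, was at 36890.9, 15192.3, 43015.5 and 22534.8 normalized counts in Control replicates 1 to 4 and at 6376.8, 2401.0, 12902.7 and 7819.7 in IRF8 KO replicates 1 to 4. The groups did not overlap, and the transcript was still at 25.1% of its Control mean in the knockout. This remaining transcript is not a measure of protein. For its knockout clones, the study reported no IRF8 protein by Western blot and loss of IRF8 from target genes by ChIP-qPCR. The log2 difference of the transcript was -2.11 (SE 0.51, limma with Benjamini-Hochberg adjustment, adjusted p = 0.0222), and the exact permutation p of 0.0286, two-sided, is the smallest that 4 against 4 libraries can give. Without Control replicate 1, Control replicate 3 or IRF8 KO replicate 1, the adjusted p of IRF8 was between 0.053 and 0.059, and the call was lost. Whether a lower level means fewer cells with a transcript or less of it per cell cannot be told apart in bulk RNA.

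Among the members, the monocyte and macrophage genes MS4A4A, MS4A6A and MS4A7 and, beside them, MS4A14 were far lower in IRF8 KO, the progenitor gene MS4A3 and the IgE receptor gene MS4A2 were somewhat higher on average with overlapping groups, and MS4A1 was not detected. Of the 7 members, 6 averaged 10 or more normalized counts over the libraries and entered the fit, and 4 of them were past an adjusted p of 0.05 on the lower side and 0 on the higher side. Over all 13110 genes tested, 9.56% were called lower and 8.65% higher (18.2% in all), but since MS4A6A and MS4A7 defined the choice, and MS4A4A and MS4A6A passed the filter only through the Control libraries, nothing is read from the count of members. In these 4 members, every knockout library was below every Control library, a pattern that 13.0% of all tested genes had. The median difference of the 6 members was -3.75 on the log2 scale, and that of all tested genes was 0. With the replicate number as a block, MS4A3 was also past the threshold, higher in IRF8 KO, but it was not with the sets of replicates 1 and 3 and of 2 and 4 as a covariate. Over all genes, 14.6% were called lower and 14.2% higher (28.7% in all) with the block.

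**Figure D2:**
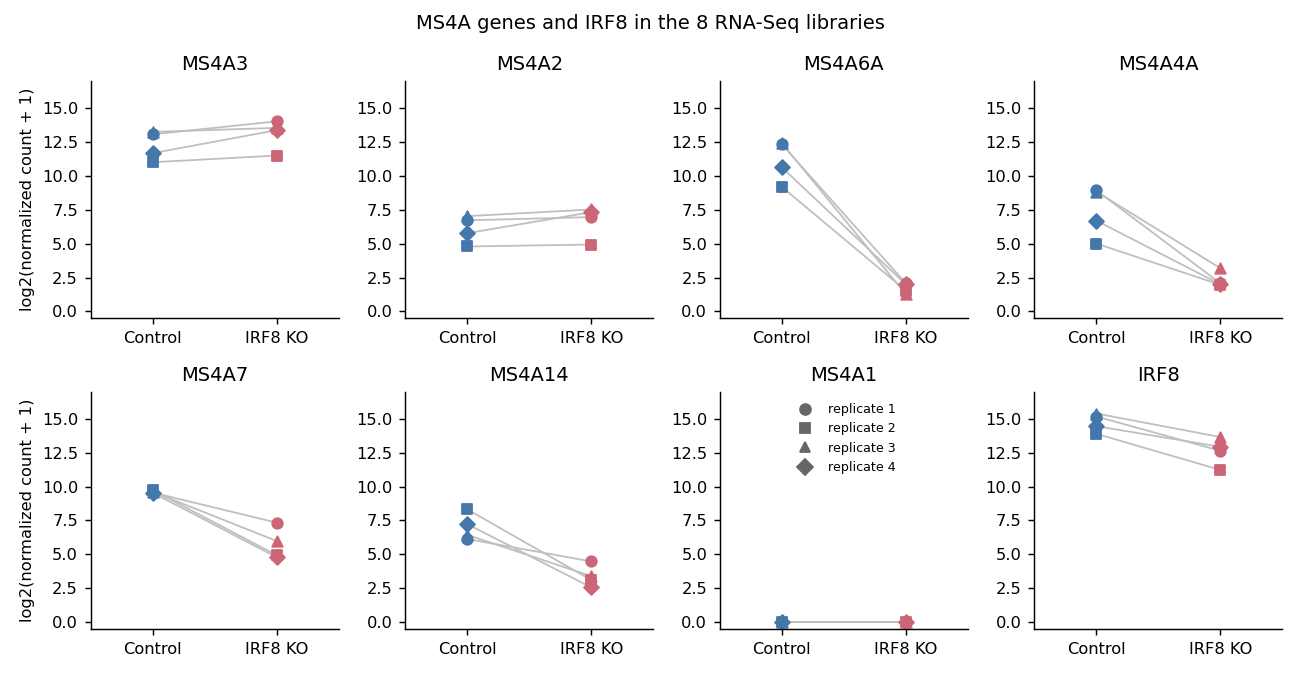
Levels of the 7 MS4A members and of IRF8 in each library, as log2(normalized count + 1) on the vertical axis, with Control in blue and IRF8 KO in red. Symbols mark the replicate number and grey lines join the same numbers, which no label states to be matched. MS4A6A, MS4A4A, MS4A7 and MS4A14 drop in all 4 pairs, MS4A3 and MS4A2 lie higher in all 4 pairs but with overlapping groups, and MS4A1 stays at 0.

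MS4A1, the gene of the B cell antigen CD20, had 0 reads in all 8 libraries. A count of 0 allows up to 3 reads, which is 2.41 to 4.06 normalized counts, depending on the library. These limits cover counting error only.

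MS4A2 encodes the β chain of the high-affinity IgE receptor, which amplifies the receptor's signal. It was at 104.6, 26.7, 129.9 and 53.7 normalized counts in Control replicates 1 to 4 and at 123.6, 29.6, 182.8 and 159.4 in IRF8 KO replicates 1 to 4. The groups overlapped widely, with replicate 2 lowest in both. The means were 78.7 ± 47.0 and 124 ± 67.4 (SD, n = 4 each), a log2 difference of 0.61 (SE 0.67). All 4 same-numbered pairs had the higher value in the knockout, by 0.143 to 1.55 on the log2 scale. No label matches libraries by number, so differences within pairs are a description here and below. The α chain gene FCER1A was found at 6.0 to 14.0 normalized counts in Control and had 0 reads in every IRF8 KO library, at least 3.17-fold lower when each knockout library is set at its limit of 3 reads. It was under the filter and not tested. FCER1G, the γ chain that this receptor shares with other Fc receptors, differed by 0.01 (log2, SE 0.26).

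MS4A3 encodes HTm4, a protein of myeloid progenitors that binds the phosphatase CDKN3 and through it acts on the cell cycle kinase CDK2. The Control libraries held 8597.2, 2058.1, 9710.1 and 3274.7 normalized counts and the IRF8 KO libraries 16676.2, 2899.0, 11950.7 and 10624.3. Replicate 2 was the lowest library of each group, and the knockout range covered much of the Control range. With means of 5910 ± 3805 and 10538 ± 5717 (SD, n = 4 each), the log2 difference was 0.86 (SE 0.65), which was not called in the fit without the block. Within same-numbered pairs the knockout was higher by 0.30 to 1.70. MS4A2 and MS4A3 followed each other, with a Pearson r of 0.94 on the log2 scale over the 8 libraries, a description over points that share the groups and the replicate numbers. CDKN3 and CDK2 differed by 0.03 (SE 0.35) and 0.15 (SE 0.21) on the log2 scale, and neither was called.

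MS4A4A encodes a macrophage surface protein that associates with the β-glucan receptor dectin-1. Its Control libraries held 487.5, 31.1, 455.3 and 102.6 normalized counts and its IRF8 KO libraries 3.2, 2.9, 8.1 and 3.0. All Control values lay above all knockout values, although Control replicate 2 was 15.7 times lower than replicate 1. The means of 269 ± 236 and 4.29 ± 2.56 (SD, n = 4 each) differ 62.8-fold, with a 95% counting interval of 38.1 to 112 from the 15 reads of the knockout, an exact Poisson interval that holds no spread between libraries. The log2 difference was -5.07 (SE 0.85), and within pairs it ran from -6.86 to -3.05.

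MS4A6A is a monocyte, macrophage and microglia gene whose locus is known from the genetics of Alzheimer's disease and of soluble TREM2. It stood at 5126.0, 581.4, 5474.7 and 1583.7 normalized counts in Control and at 3.2, 1.9, 1.4 and 3.0 in IRF8 KO. These knockout values rest on 3, 2, 1 and 3 reads. The gene was thus plainly present in every Control library and at the limit of detection in every knockout library. The Control mean of 3191 ± 2473 fell to 2.35 ± 0.868 (SD, n = 4 each), which is 0.0737% of Control, or 1356-fold with a 95% counting interval of 714 to 2966. On the log2(normalized count + 1) scale, which understates such a difference, it was -9.43 (SE 0.68), the rank 4 from the lowest of the 13110 tested genes. Within pairs the difference ran from -11.2 to -7.64.

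MS4A7 is expressed in monocytes and macrophages and was one of the genes for which the study designed RT-qPCR and ChIP-qPCR primers. The RT primers are shown since they name the stretch of transcript that they amplify.
MS4A7 RT forward: tgacagcatggtagccctga
MS4A7 RT reverse: cacctgttaaactgacactggt
In the RNA-Seq, MS4A7 was at 752.2, 853.9, 786.1 and 747.6 normalized counts in Control and at 160.9, 29.6, 62.3 and 26.6 in IRF8 KO. The Control libraries were nearly equal, and the knockout libraries were all lower but spread widely, with replicate 1 highest. The mean fell from 785 ± 49.1 to 69.8 ± 62.8 (SD, n = 4 each), to 8.9% of Control, a fold of 11.2. The log2 difference was -3.86 (SE 0.51), with pairs from -4.8 to -2.22. Unlike MS4A6A, MS4A7 kept a measurable transcript in all knockout libraries.

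MS4A14 is a less studied member that lies next to MS4A7. Its values were 69.2, 318.3, 85.9 and 149.7 normalized counts in Control and 21.3, 7.6, 9.5 and 4.9 in IRF8 KO. Control replicates 2 and 4 were the high ones, the reverse of MS4A4A and MS4A6A, and the groups did not overlap. The mean fell from 156 ± 114 to 10.8 ± 7.23 (SD, n = 4 each), to 6.96% of Control, with a log2 difference of -3.65 (SE 0.57) and pairs from -5.21 to -1.65.

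The Control libraries differed among themselves by gene. In MS4A6A the mean of replicates 1 and 3 was 5300 normalized counts against 1083 in replicates 2 and 4, a ratio of 4.9. The ratio was 7.05 in MS4A4A, 3.43 in MS4A3, 2.92 in MS4A2 and 2.12 in IRF8. MS4A7 did not follow this split, with 769 against 801 and a coefficient of variation of 6.25% over the 4 Control libraries. MS4A14 had the opposite order, with 77.5 in replicates 1 and 3 against 234 in replicates 2 and 4. The labels do not say what the split is, and its part in the differences was not tested. In the 4 lower members, every knockout library was below every Control library. Any subset of the libraries therefore had to give a lower value in IRF8 KO, and only the sizes are described. Within replicates 1 and 3 and within replicates 2 and 4, in this order, the log2 differences were -10.7 and -8.15 for MS4A6A, -6.25 and -3.88 for MS4A4A, -2.93 and -4.78 for MS4A7, and -2.35 and -4.94 for MS4A14. For MS4A3 they were 0.63 and 1.1, and for MS4A2 0.36 and 0.85. When each library was left out in turn, the difference lay between -10.08 and -9.01 for MS4A6A, -5.86 and -4.55 for MS4A4A, -4.38 and -3.53 for MS4A7, and -4.01 and -3.22 for MS4A14. It ranged from 0.45 to 1.4 for MS4A3 and from 0.18 to 1.19 for MS4A2.

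**Figure D3:**
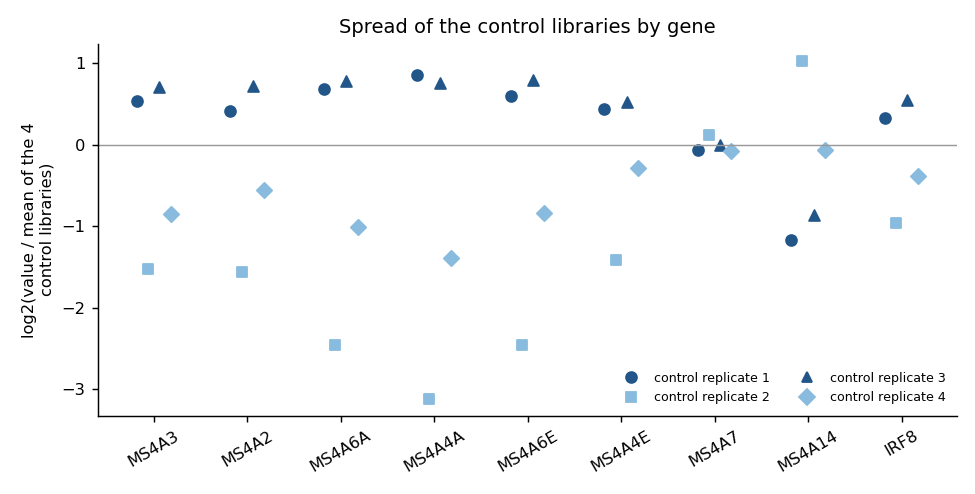
Spread of the 4 Control libraries for each detected MS4A gene and IRF8. The vertical axis is log2 of a library's normalized count over the mean of the 4 Control libraries, dark symbols are replicates 1 and 3, and light symbols replicates 2 and 4. The dark symbols lie above the light ones in MS4A3, MS4A2, MS4A6A, MS4A4A, MS4A6E, MS4A4E and IRF8, all 4 coincide near 0 in MS4A7, and the order is reversed in MS4A14.

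The differences were then read along the chromosome. In the RefSeq order the cluster runs from MS4A3 and MS4A2 through MS4A6A, MS4A4E, MS4A4A, MS4A6E, MS4A7 and MS4A14 to MS4A5, MS4A1 and the rest of the family. The 6 neighbouring genes from MS4A6A to MS4A14 all had a negative difference, and MS4A3 and MS4A2 at their side did not. As the fall of MS4A6A and MS4A7 led to the choice, this run is a description of the order and was not tested. Of the other MS4A family, 11 genes including TMEM176A and TMEM176B, 3 passed the filter and 1 was called lower, MS4A6E. It held 193.9, 23.3, 222.3 and 71.6 normalized counts in Control and 0 reads in each IRF8 KO library, at least 39.1-fold lower with the knockout libraries set at 3 reads each. Its log2 difference was -6.55 (SE 0.68, limma adjusted p = 0.000409). MS4A6E also passed the filter through Control alone, and its difference depends on the value added before the logarithm, at -7.54 with 0.5 and -4.31 with 5.

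MS4A4E, between MS4A6A and MS4A4A, was at 46.7, 12.9, 49.4 and 28.2 normalized counts in Control and at 10.7, 16.2, 13.5 and 5.9 in IRF8 KO. The groups overlapped through Control replicate 2, and the difference of -1.40 (SE 0.50) was not called (limma adjusted p = 0.0864). Without Control replicate 2 it was called, at -1.79 (limma adjusted p = 0.0275). MS4A4A and MS4A4E are close copies, and their upstream windows were identical at 159 of 171 aligned bases. MS4A6A and MS4A6E are likewise related, and whether reads of one copy were counted for the other was not tested. TMEM176B, a more distant family member on another chromosome, differed by -1.14 (SE 0.47, limma adjusted p = 0.129), and TMEM176A was under the filter at 6.9 to 14.5 normalized counts in Control and 1.9 to 5.4 in IRF8 KO. MS4A5, MS4A8, MS4A13 and MS4A18 had no read in any library, and MS4A10, MS4A12 and MS4A15 had at most 7.5 normalized counts.

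Of the 21 genes flanking the cluster on both sides, 13 passed the filter, 0 were called lower and 1 was called higher (7.69% of those tested), or 1 lower and 2 higher with the replicate block. Their median log2 difference was -0.09. The gene called higher was TCN1, which encodes a vitamin B12 binder of neutrophil granules and lies on the MS4A3 side. It rose from 5.75 ± 3.77 to 22.2 ± 10.5 normalized counts (SD, n = 4 each), by 1.88 on the log2 scale (SE 0.52, limma adjusted p = 0.0375). TCN1 passed the filter through the IRF8 KO libraries alone. It was not called without Control replicate 1 or 2 or without IRF8 KO replicate 1, 3 or 4. OOSP1 on the same side was at 64.6 ± 45.5 and 16.3 ± 4.97 (SD, n = 4 each), a difference of -1.64 (SE 0.55, limma adjusted p = 0.0732, and 0.0494 without Control replicate 3). SLC15A3, an endolysosomal peptide transporter on the far side, was at 312 ± 22.5 and 149 ± 97.8 (SD, n = 4 each), by -1.33 (SE 0.47, limma adjusted p = 0.0886, but 0.0432 with the replicate block and 0.021 without IRF8 KO replicate 2).

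The intervals of the other flanking genes held 0. The 95% interval of the log2 difference ran from -0.44 to 0.26 for OSBP, an oxysterol-binding protein gene, from -0.63 to 0.27 for PATL1, an mRNA decay factor, and from -0.61 to 0.24 for the syntaxin STX3. On the other side it ran from -0.64 to 0.07 for the splicing factor PRPF19, from -0.85 to 0.56 for TMEM109 and from -0.18 to 0.37 for VPS37C of the ESCRT machinery. The mitochondrial ribosome gene MRPL16 differed by 0.33 (interval -0.22 to 0.87, limma adjusted p = 0.403, and 0.0496 with the replicate block). The intervals were wider for CCDC86 (-1.16 to 0.99), PTGDR2 (-1.03 to 0.90) and CD6 (0.21, SE 0.87). A change of 1.5-fold lies outside the interval for OSBP and VPS37C, and inside it for the others.

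**Figure D4:**
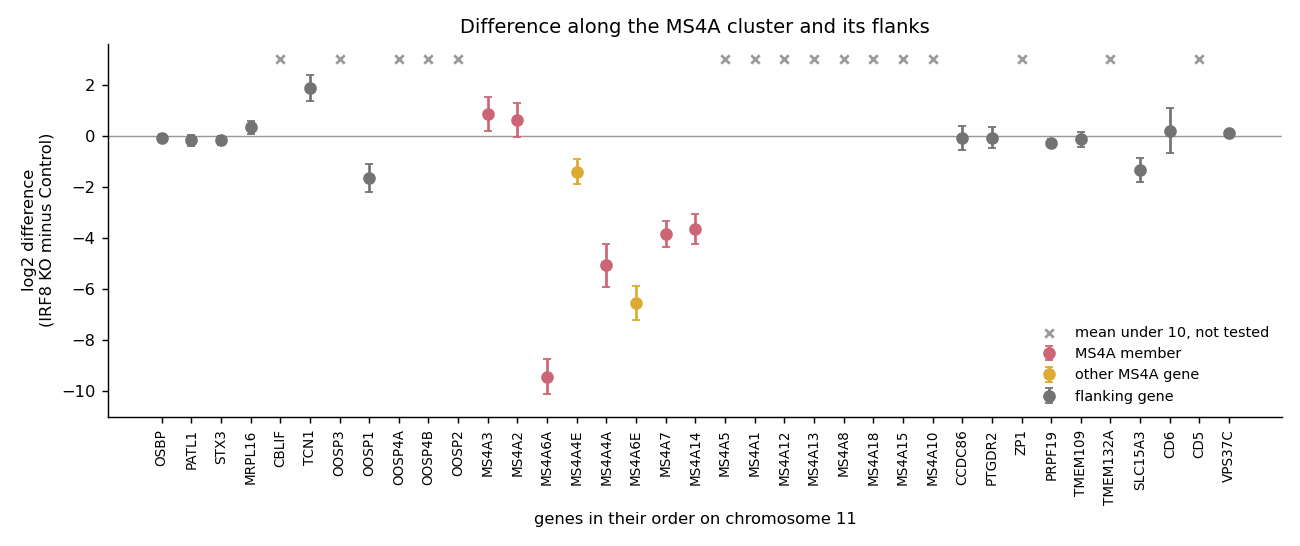
Log2 difference (IRF8 KO minus Control) along the MS4A cluster and its flanks, genes in their order on chromosome 11 and not to distance. Points are the limma estimates with the SE as bars, in red for the members, yellow for other MS4A genes and grey for flanking genes, and crosses mark genes under the filter. The 6 genes from MS4A6A (-9.43) to MS4A14 (-3.65) lie below 0, and the flanking genes lie between -1.64 and 1.88.

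Genes that work with MS4A proteins were counted next. Of the 12 partner genes, 11 passed the filter, 2 were called higher and 0 lower, which is 18.2% of those tested and the same share as over all genes. Their median log2 difference was 0.15. TYROBP, the DAP12 adaptor of TREM2 and other myeloid receptors, rose from 1922 ± 86.2 to 4301 ± 521 normalized counts (SD, n = 4 each), by 1.16 on the log2 scale (SE 0.12, limma adjusted p = 0.000362). CLEC7A, which encodes dectin-1, rose from 2.01 ± 0.771 to 25.6 ± 15.5 (SD, n = 4 each), by 2.99 (SE 0.50, limma adjusted p = 0.00411). CLEC7A passed the filter through the IRF8 KO libraries alone. Its partner MS4A4A was lower in the same libraries. TREM2 itself was at 2014.4, 302.8, 2166.0 and 454.8 normalized counts in Control and at 605.3, 239.9, 1431.4 and 338.4 in IRF8 KO, with overlapping groups and a difference of -0.77 (SE 0.77, limma adjusted p = 0.554). TREM2 had the same order of Control libraries as MS4A6A, with replicates 1 and 3 high. The SRC family kinase LYN, which starts IgE receptor signaling, differed by -0.32 (SE 0.10, limma adjusted p = 0.0515, and 0.0493 with the replicate block), and SYK, the kinase downstream of it, by 0.16 (SE 0.14). CD79A, CD79B and CD40 of B cells were not called, although CD79B was without IRF8 KO replicate 1 (1.43, limma adjusted p = 0.00772).

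The lineages in which MS4A genes are known were then compared by their markers. These lists were chosen with earlier results of these data known, so the shares called may reflect the choice in part. Of 22 monocyte and macrophage markers, 16 passed the filter, 3 were called lower and 6 higher (56.2% in all), with a median log2 difference of 0.85. With the replicate block the counts were 4 and 8. More of these markers were thus called higher than lower, whereas MS4A4A, MS4A6A and MS4A7 were lower. CD68, a lysosomal glycoprotein, rose from 2253 ± 217 to 8149 ± 1849 (1.83, SE 0.17, limma adjusted p = 0.00024), and the integrin ITGAM from 79.6 ± 22.1 to 710 ± 366 normalized counts (SD, n = 4 each; 3.03, SE 0.38, adjusted p = 0.000976). The complement receptor VSIG4 rose from 10.2 ± 5.3 to 170 ± 80.3 (3.86, SE 0.51, limma adjusted p = 0.00133) and the high-affinity IgG receptor FCGR1A from 2752 ± 394 to 5135 ± 1064 (0.89, SE 0.18, limma adjusted p = 0.0104).

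The markers that fell were AIF1, SIGLEC1 and CD36. AIF1, an actin-binding protein of microglia, fell from 15963 ± 2288 to 8165 ± 2091 (-0.99, SE 0.20, limma adjusted p = 0.0106), and the sialic acid receptor SIGLEC1 from 36.9 ± 6.44 to 11.7 ± 6.6 (-1.71, SE 0.41, limma adjusted p = 0.0208). SIGLEC1 was not called without Control replicate 1 (limma adjusted p = 0.062) or Control replicate 3 (0.0586). The scavenger receptor CD36 was at 156.9, 4.3, 187.9 and 29.2 normalized counts in Control and at 2.1, 0.0, 4.1 and 0.0 in IRF8 KO (-4.55, SE 1.15, limma adjusted p = 0.0255), with Control replicates 1 and 3 high as in MS4A4A and MS4A6A. CD36 passed the filter through the Control libraries alone. Its call was lost without Control replicate 1 or 3 or IRF8 KO replicate 2 or 4, at limma adjusted p-values of 0.0563 to 0.0712. The fractalkine receptor CX3CR1 was lower in all 4 pairs, with means of 2143 ± 756 and 1140 ± 685 (SD, n = 4 each), and was called with the replicate block (limma adjusted p = 0.0374) but not without it (0.152). LYZ, the lysozyme gene, carried much of the summed level of this list and was not called (3.09, SE 0.98, limma adjusted p = 0.06, but 0.00213 with the replicate block and 0.0371 without IRF8 KO replicate 2). The monocyte receptor CD14 was low throughout, at 1.9 to 12.9 in Control and 13.8 to 25.6 in IRF8 KO (limma adjusted p = 0.114, and 0.0479 with the replicate block), and FCGR3A had reads in 1 library only. The summed level of the list was 31244 to 43595 normalized counts in Control and 46216 to 278568 in IRF8 KO.

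B cell and mast cell markers were counted in the same way. Of 16 B cell markers, 10 passed the filter, 3 were called lower and 1 higher (40% in all), with a median of -0.36. With the replicate block 5 were lower and 1 higher, and those added were FCRLA (-3.93, limma adjusted p = 0.000215 with and 0.111 without the block) and the B cell factor EBF1 (-0.65, 0.0391 with and 0.449 without). Among those called lower, the low-affinity IgE receptor FCER2 fell from 301 ± 131 to 18.6 ± 17.3 (-4.46, SE 0.81, limma adjusted p = 0.00592) and the ETS factor SPIB from 1177 ± 88.7 to 347 ± 253 (-2.08, SE 0.50, limma adjusted p = 0.0207). VPREB3, another marker of this list, rose from 7.57 ± 0.731 to 21.3 ± 8.96 (1.30, SE 0.37, limma adjusted p = 0.0401). It passed the filter through the IRF8 KO libraries alone. SPIB was not called without Control replicate 1 (limma adjusted p = 0.0517) or IRF8 KO replicate 4 (0.0525), and VPREB3 was called only when all libraries or all but IRF8 KO replicate 2 or 4 were used, with limma adjusted p-values of 0.0773 to 0.0954 otherwise. The summed level of these markers was 4225 to 9884 normalized counts in Control and 1467 to 6459 in IRF8 KO. EBF1 carried much of it, at 2069.1 to 5592.0 in Control and 818.4 to 3607.3 in IRF8 KO. PAX5, CR2, BLK, FCRL1, CD22 and POU2AF1 did not pass the filter, and MS4A1 was at 0. Of 14 mast cell and basophil markers, 7 passed the filter, 1 was called higher and 0 lower (14.3% in all), with a median of -0.74. The replicate block added GATA2, higher (1.27, limma adjusted p = 0.0378 with and 0.118 without the block). CPA3, the mast cell carboxypeptidase, was at 0 in all Control libraries and at 6.4, 28.7, 27.1 and 53.1 in IRF8 KO (limma adjusted p = 0.00134). It passed the filter through the IRF8 KO libraries alone, and MRGPRX2 had no read. Among the other tested genes of this list, KIT (-1.71), TPSAB1 (-1.77), TPSB2 (-1.79) and CMA1 (-0.74) were lower on the log2 scale. SLC18A2 (0.34) was higher, and none of these was called. The summed level of these 14 markers was 618 to 1121 in Control and 913 to 1709 in IRF8 KO. GATA2 carried much of this sum, at 225.1 to 962.2 in Control and 767.3 to 1573.6 in IRF8 KO.

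The 13 genes listed for granulocyte-monocyte progenitors all passed the filter, with 10 called higher, 1 lower (84.6% in all) and a median log2 difference of 1.94. The list is broader than this stage, to which MS4A3 belongs, as CEBPE and IGLL1 below show. As this list was also chosen with earlier results known, its share called may reflect the choice in part. The azurophil granule genes MPO and ELANE rose from 767 ± 54.6 to 13378 ± 3888 (4.08, SE 0.20, limma adjusted p = 9.86e-06) and from 2867 ± 38.2 to 37710 ± 14557 (3.64, SE 0.23, limma adjusted p = 4.12e-05). CEBPE, a transcription factor of late granulocyte development, rose from 44 ± 11.5 to 2544 ± 1728 (5.56, SE 0.49, limma adjusted p = 0.000222), and the complement factor gene CFD from 5367 ± 410 to 19704 ± 3368 (1.86, SE 0.14, limma adjusted p = 9.24e-05). IGLL1, a pre-B cell receptor gene kept in this list, fell from 1998 ± 301 to 529 ± 571 (-2.40, SE 0.54, limma adjusted p = 0.0158). The test of edgeR did not make this call (adjusted p = 0.0613). The summed level was 60553 to 72705 normalized counts in Control and 202235 to 436306 in IRF8 KO. MS4A3 itself, with a higher mean in the knockout, was not called without the block. The part of such lineage markers in the values of the members was not tested.

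**Figure D5:**
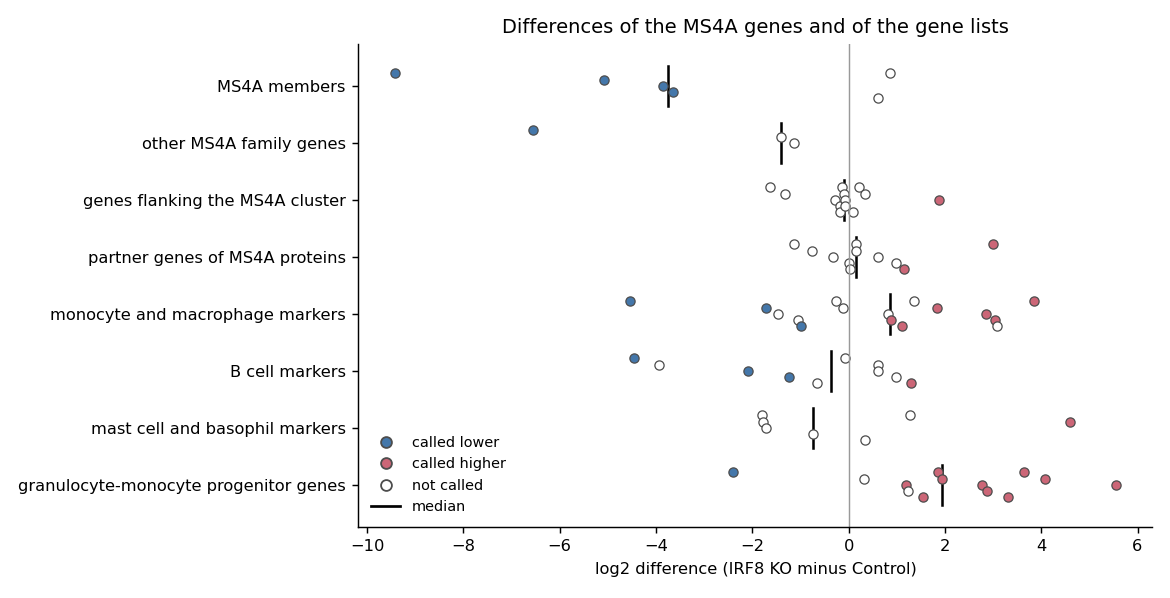
Log2 differences (IRF8 KO minus Control) of the tested MS4A members and of the tested genes of each list. Blue points were called lower, red points higher and white points not called at a limma adjusted p below 0.05, and the black bar is the median. The members have a median of -3.75, the monocyte and macrophage markers 0.85 and the progenitor genes 1.94.

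Genes whose pattern over the 8 libraries was most like that of a member were named by the highest Pearson r on the log2 scale, among 10985 genes with a mean of at least 100. As the 8 points share the groups and the split of replicates 1 and 3 from 2 and 4, r is a description only. MS4A6A was most like TMEM233 (0.997, from 439 to 0.266 normalized counts in the mean) and CSTF1 (0.994, from 2091 to 1185). TOP1 (0.993, from 19826 to 9540), RPRD1B (0.993, from 2342 to 1000) and GABBR2 (0.992, from 771 to 3.72) came next. MS4A4A was most like DDX27 (0.993), E2F7 (0.991), OGFR (0.989), AHCY (0.988) and ZNF335 (0.988), and MS4A7 like DNAJC5 (0.992), AXIN2 (0.986), MKKS (0.981), C2orf16 (0.978) and TMEM230 (0.976). Of these 15 genes, 10 lie on chromosome 20, against 2.67% of the 10949 compared genes with a known chromosome, a count made after the genes were seen. The log2 differences of these 10 ran from -1.22 (RPRD1B) to -0.61 (DNAJC5), smaller falls than those of MS4A4A, MS4A6A and MS4A7. None of the 15 was among the 5 most alike when deviations from the group means were compared. The genes nearest to MS4A3 were TMEM33 (0.979), SYK (0.977), LIN28B, RFK (both 0.975) and G3BP1 (0.971), and those nearest to MS4A2 were ACPP (0.981), HSD11B1 (0.976), G3BP1 (0.971), ABHD10 (0.97) and NLN (0.967), with 0 of these 10 on chromosome 20. Among the members, MS4A4A and MS4A6A reached an r of 0.96, MS4A7 and MS4A14 of 0.95 and MS4A6A and MS4A7 of 0.92, whereas MS4A3 and MS4A6A were at -0.27.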

How the data were processed

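RNA was sequenced from 4 Control and 4 IRF8 KO libraries of MV4-11 cells. As stated in the methods of the study, the authors aligned reads to GENCODE v32 with RNA-Star, counted them with featureCounts and normalized the counts with DESeq2. The submitters' processing notes name the builds hg19 and hg38 without a role. The strand setting of the counting was not stated. The deposited signal values are read counts divided by a size factor for each library, and 100% came out as whole reads within 0.01 reads. Control columns are headed as wild type. The authors' table of their own comparison was not used, and 0 columns lacked a sample. The depth per library ranged from 39560072 to 65519047 reads on genes, so values near 10 rest on few reads.

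Differences were computed with limma 3.58.1 (R 4.3.3) on the log2 scale, with 1 added to each value, for 13110 genes whose mean was 10 or more, using a trended robust prior and Benjamini-Hochberg adjustment. Recovered reads were also tested with edgeR 4.0.16 and DESeq2 1.42.0. Members and gene lists were chosen with earlier results of these data known. Named were all members, IRF8, the MS4A family, tested flanking genes, up to 4 called genes by adjusted p for each list and direction, markers at 0 and the 5 most alike genes for each member with a mean of at least 100. Outside this rule, FCER1A, FCER1G, CDKN3, CDK2, TREM2, LYN, SYK, CD79A, CD79B, CD40, LYZ, CD14, FCGR3A, CX3CR1, FCRLA, EBF1 and GATA2 were named after their values were seen. So were KIT, TPSAB1, TPSB2, CMA1, SLC18A2, PAX5, CR2, BLK, FCRL1, CD22 and POU2AF1. Of the genes of the rule, 1 is not reported here. Same-numbered Control and KO libraries deviated together (correlations 0.37, 0.48, 0.45 and 0.5), and the block was therefore fitted. Replicates 1 and 3, and 2 and 4, correlated as highly across numbers (0.4 to 0.47), so the data show a split in 2 sets and do not single out the number, which no label explains. Alternatives covered pseudocount, filter, scaling, tool, replicate block, thresholds and leaving out each library. The scripts were tested on simulated data.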

Additional observations from a re-analysis of the deposited data

Results flagged for a closer look

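Of 17 groups of 4 libraries examined for a library that stands apart, 1 was flagged, and chance alone would flag about 1 in 20. In IRF8 KO, replicate 3 held 8.1 normalized counts of MS4A4A against 2.9 to 3.2 in the other 3 libraries, and its gap to the nearest of them was 0.937 of the whole range, above Dixon's 95% limit for 4 values. These values rest on 6 reads in replicate 3 and 3 reads in each of the other 3. Equal counts in those libraries bring the gap near the whole range for almost any higher count in replicate 3. Dixon's limit and the rate of 1 in 20 therefore do not hold for these values, and nothing is read from the flag. The log2 difference of MS4A4A without this library was -5.36.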

How the results depend on the processing

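Counts of members past the threshold (4, or 5 with the replicate block, 3 at a mean of at least 100) follow in part from their choice and are no sign of stability. Over all genes 2387 were called, against 3769 with the replicate block, 4333 with the pair of libraries as a covariate (replicates 1 and 3 against 2 and 4, chosen after seeing the data), 1429 at the thresholds of the study, and 1668 to 2459 when leaving out each library. The lists moved as follows from their counts above. The other MS4A family had 2 calls with DESeq2 and 2 with the covariate. Flanking genes had 2 with DESeq2, 2 with edgeR, 3 with the block, 4 with the covariate and 0 at a mean of at least 100. Partner genes had 4 with DESeq2 and 1 at a mean of at least 100. At that filter the monocyte and macrophage markers had 4, the B cell markers 2, and the mast cell and basophil markers 0, which had 3 without a filter and 2 with the block or the covariate. Leaving out each library gave 1 to 2 for the other MS4A family, 0 to 2 for flanking genes, 2 for partner genes, 5 to 9 for monocyte, 2 to 4 for B cell, 0 to 1 for mast cell and 9 to 10 for progenitor genes, and -2.46 to -1.65 for IRF8. Among the named genes of the lists, the block added LYZ, LYN, SLC15A3, MRPL16, CD14, CX3CR1, FCRLA, EBF1 and GATA2 and lost none, DESeq2 added MS4A4E, OOSP1, LYN, CD79B, LYZ and FCRLA, and edgeR added OOSP1 and LYN and lost IGLL1. A higher filter tests fewer genes, and for the other settings the cause was not tested. Of the 25 genes most alike to a member, 3 remained when deviations from group means were compared (2 for MS4A2, 1 for MS4A3 and 0 for MS4A4A, MS4A6A and MS4A7) and 2 under Spearman's rho. The log2 difference of MS4A6A was -8.27 with a pseudocount of 5. Values near 3 reads limit MS4A4A and MS4A6A in the knockout.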
